A study of Mus musculus with 34 samples.

Results

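Tekt1, Tekt2, Tekt3 and Tekt4 encode tektins, and their mRNA was followed in cultured mouse ependymal cells that lacked the transcription factor RFX1, RFX2 or RFX3. The 4 genes were found by their Ensembl identifiers among the 21647 genes of the deposited count table, and all 4 were measured in all 34 samples. Ependymal cells form the lining of the brain ventricles and move cerebrospinal fluid with many motile cilia. The cells came from lateral ventricular walls of E18.5 embryos, were grown to confluency and were then kept without serum for 4 days to make them differentiate. The Rfx1 line had 4 Rfx1-/- and 4 wild-type samples, the Rfx2 line 6 Rfx2-/- and 8 wild-type samples, and the Rfx3 line 6 Rfx3-/- and 6 wild-type samples, the wild types being +/+ siblings. All 6 groups were labelled C57BL/6, and OF1, a further word in every title, has no explanation in the labels. Whether replicates came from different embryos or different dishes is not said, and p-values therefore rest on the spread of these samples, which may be technical.

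Tektins are coiled-coil proteins that form filaments inside the doublet microtubules of cilia and flagella, where they belong to the microtubule inner proteins, a group that lines the tubule wall from within. They stabilise the doublets of motile cilia and sperm tails, and several of them are best known from sperm. RFX factors bind the X-box, an imperfect inverted repeat of a GTTGC-type half-site, in promoters of ciliary genes. FOXJ1 is the regulator that turns on the motile cilium programme, and MCIDAS acts before it, when a cell commits to many cilia.

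In the annotation of the GRCm38 build (GENCODE M21), Tekt1 (ENSMUSG00000020799) lies on the minus strand of chromosome 11 from 72344722 to 72362442. Tekt2 (ENSMUSG00000028845) lies on the minus strand of chromosome 4 from 126322121 to 126325688. Tekt3 (ENSMUSG00000042189) lies on the plus strand of chromosome 11 from 63061654 to 63094964, and Tekt4 (ENSMUSG00000024175) on the plus strand of chromosome 17 from 25454615 to 25476602. The 4 genes are therefore separate loci with exons of 1622, 1900, 1748 and 1997 bases in all. Tekt2 shares 396 exon bases with Gm12945, a transcript on the opposite strand that is not among the genes of the table. Whether reads were counted by strand is not given in the sources used here, so reads of the 2 cannot be told apart.

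The 150 bases before the first start site that RefSeq lists for each gene are shown, with GTTGC, a half-site of the X-box type, marked in them. Sequences are those of RefSeq for GRCm38.p6, 5′ to 3′ on the strand of the gene, and capitals mark GTTGC on either strand (GCAAC is its complement). Those of Tekt1 and Tekt4 lie wholly inside the GENCODE spans given above, with RefSeq start sites at 72361882 and 25471590. GENCODE places the outermost start of these 2 genes further upstream.
Tekt1, chr11:72361883-72362032, minus strand: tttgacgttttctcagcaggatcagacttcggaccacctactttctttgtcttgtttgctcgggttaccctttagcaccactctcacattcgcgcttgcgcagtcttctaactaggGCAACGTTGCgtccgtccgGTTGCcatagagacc
Tekt2, chr4:126325689-126325838, minus strand: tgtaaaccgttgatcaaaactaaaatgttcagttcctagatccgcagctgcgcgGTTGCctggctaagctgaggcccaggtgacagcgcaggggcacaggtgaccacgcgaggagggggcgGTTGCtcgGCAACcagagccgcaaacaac
Tekt3, chr11:63061509-63061658, plus strand: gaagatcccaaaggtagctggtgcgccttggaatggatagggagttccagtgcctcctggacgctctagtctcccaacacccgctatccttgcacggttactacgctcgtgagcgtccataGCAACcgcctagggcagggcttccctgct
Tekt4, chr17:25471440-25471589, plus strand: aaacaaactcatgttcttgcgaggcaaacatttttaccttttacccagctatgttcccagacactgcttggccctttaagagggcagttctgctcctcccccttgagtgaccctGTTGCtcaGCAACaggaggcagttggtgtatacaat

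All 4 sequences held GTTGC close to the start site. In Tekt2 and Tekt4 it stood as 2 inverted copies with 3 bases between them, GTTGCTCGGCAAC at positions -29 to -17 of Tekt2 and GTTGCTCAGCAAC at -36 to -24 of Tekt4, counted from the start site as position 1. In Tekt1 the letters GTTGCCATAGAGAC at -15 to -2 matched the degenerate X-box consensus, and in Tekt3 a single copy stood on the opposite strand at -29 to -25 without a match to that consensus. The table of 32851 promoters (250 bases before to 50 after a start) lists 7 promoters for the 4 genes. Searched on both strands, this inverted repeat of GTTGC with any 3 bases between was in 3 of these 7 and in 0.225% of all promoters of the table. The 3 are 2 overlapping promoters of Tekt2 and the one of Tekt4. GTTGC alone was in 6 of 7 and in 35.2% of all, and the degenerate X-box consensus in 4 of 7 and in 34.7% of all. The half-site GTTNCC was in 5 of 7 and in 45.3%, its inverted repeat GTTNCC, 0 to 3 bases, GGNAAC in 0 of 7 and in 0.804%, and the forkhead core TGTTTAC in 1 of 7, that of Tekt3, and in 3.65%. GTTGC and its inverted repeat were chosen after these sequences had been read, and they overlap the consensus. A match describes letters only. Binding was not measured.

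Levels below are CPM, the count of a gene divided by the size of its library in M counts, scaled by TMM, which adjusts each library for its composition. Libraries held 18.2 to 53.4 M counts. The targeted gene was lower in its own line each time, with Rfx1 at 25.3 ± 4.94 against 66.8 ± 10.6 CPM (SD, n = 4 and 4), Rfx2 at 49.2 ± 4.46 against 106 ± 14.8 (n = 6 and 8) and Rfx3 at 39.7 ± 9.13 against 175 ± 17.4 (n = 6 and 6). Rfx1 itself missed the threshold over all genes (adjusted p = 0.0687 in edgeR). In the Rfx3 line Rfx2 and Rfx1 fell as well, to 79.7 ± 18.4 from 117 ± 4.504 CPM and to 47.2 ± 7.51 from 64.0 ± 6.53 (n = 6 and 6; log2 differences -0.56 and -0.45, adjusted p = 0.00861 and 0.0111), with 6 of 6 knockouts below every wild type for both. Without Rfx3-/- libraries 4 to 6 these differences were -0.32 and -0.27 and were not called (0.0669 and 0.110). Ependymal markers were abundant in every group, with a summed level of 6965 to 12610 CPM over 8 genes. Summed astrocyte markers ran from 1828 to 10710 CPM over 7 genes. In the Rfx3 line the ependymal sum had a median of 8593 CPM in knockouts and 8180 in wild types, although 4 of these 8 markers fell there. Prm1, Prm2, Tnp1 and Akap4, which mark sperm cells, were under 0.1 CPM in every library. Rfx3-/- libraries 4, 5 and 6 stood apart from Rfx3-/- libraries 1, 2 and 3 in tektins, regulators and markers of other cells, and results of this line are given with and without them.

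Tekt1 was the most abundant tektin of wild-type ependymal cells. Per length of exon it had a median of 62.2 RPKM over the 18 wild-type libraries (27.5 to 85.2), above 96.4% of the 19103 genes detected in them. Tekt4 had 15.2 RPKM (6.66 to 21.8), Tekt2 2.56 (2.06 to 3.04) and Tekt3 1.40 (0.419 to 2.30). The order Tekt1, Tekt4, Tekt2, Tekt3 held in 34 of 34 libraries, while the wild-type ranges of Tekt2 and Tekt3 overlapped. Tekt5, a related tektin, had 0.478 RPKM (0.285 to 0.910), and Ccdc105, listed in newer nomenclature as the tektin-like gene Tektl1, had 0.102 (0.0202 to 0.201).

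Wild-type levels differed between lines for Tekt3 and Tekt4. Tekt4 was 19.7 ± 5.84 CPM (n = 8) in the Rfx2 line against 33.0 ± 7.55 (n = 4) and 35.3 ± 3.58 (n = 6) in the Rfx1 and Rfx3 lines (F test in edgeR, adjusted p = 0.0348). Tekt3 was 1.51 ± 0.558 CPM against 2.66 ± 0.707 and 3.20 ± 0.448 (adjusted p = 0.0138). Tekt1, at 72.2 ± 21.8 CPM against 105 ± 16.9 and 122 ± 9.65, did not pass (0.0571), and neither did Tekt2 (0.693), at 4.62 ± 0.750 against 4.70 ± 0.509 and 5.08 ± 0.465. Of all 14833 genes 57.7% passed this test, and line and batch cannot be told apart in it.

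All 4 tektins fell in Rfx2-/- cells. Tekt3 fell the most and Tekt2 the least. In this line 32.3% of the 14305 genes tested were called in either direction (adjusted p under 0.05) and 18.4% were called lower. Every knockout library lay below every wild type for Tekt1, Tekt2 and Tekt3, a pattern that 6.69% of all genes showed, and 5 of 6 did so for Tekt4.

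Tekt1 ran from 28.4 to 40.6 CPM with a median of 35.1 in the 6 knockouts and from 44.5 to 112 with a median of 72.5 in the 8 wild types. The groups did not overlap, and the wild types were spread more widely than the knockouts. The log2 difference was -1.06 (SE 0.19), with an adjusted p of 0.000859 in edgeR's quasi-likelihood test with Benjamini-Hochberg adjustment, as for all adjusted p-values of single genes below. Tekt2 ran from 2.46 to 3.56 CPM (median 3.12) in knockouts and from 3.92 to 5.77 (median 4.29) in wild types. The gap between the groups was narrow, and the log2 difference was -0.60 (SE 0.12, adjusted p = 0.00222).

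Tekt3, the least abundant of the 4, rested on 7 to 22 counts per knockout library and 29 to 76 per wild type. It ran from 0.258 to 0.668 CPM (median 0.539) in knockouts and from 0.733 to 2.37 (median 1.43) in wild types. The highest knockout lay just under the lowest wild type, and the log2 difference was -1.58 (SE 0.29, adjusted p = 0.000994). Tekt4 ran from 8.47 to 13.8 CPM (median 10.9) in knockouts and from 13.3 to 32.0 (median 19.6) in wild types. Knockout 2, at 13.8 CPM, exceeded wild types 1 and 5, at 13.3 and 13.7. The log2 difference of Tekt4 was -0.86 (SE 0.18, adjusted p = 0.00247). Its call ended in a fit of all 34 libraries (-0.84, adjusted p = 0.0505).

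**Figure D1:**
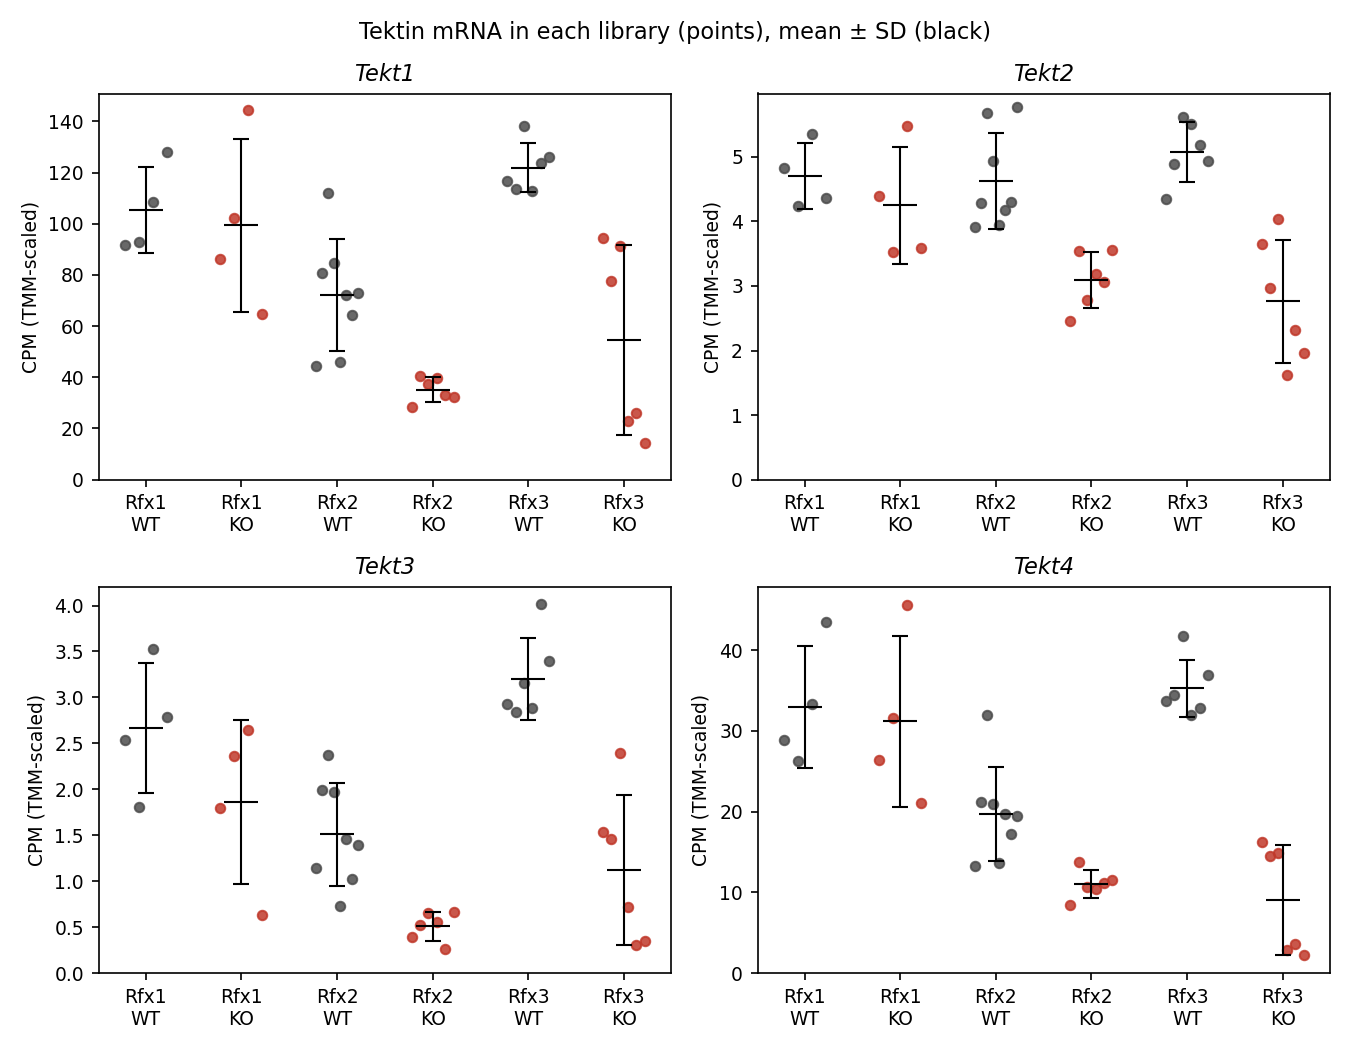
TMM-scaled CPM of each tektin (vertical axes, linear and starting at 0) in the wild-type (WT, grey) and knockout (KO, red) libraries of each line (horizontal axis), with points for libraries and black bars for mean ± SD. Rfx2 knockouts lie together below every wild type for Tekt1, Tekt2 and Tekt3, and for Tekt4 knockout 2 exceeds wild types 1 and 5. Rfx3 knockouts fall into an upper and a lower set of 3, and Rfx1 knockouts overlap their wild types.

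Other cells' markers moved as well in the Rfx2 line. Of all 14305 genes tested, 18.4% were called lower and 1988 genes were called higher. Of 8 ependymal markers 7 fell, and of 7 astrocyte markers 4 rose. The summed astrocyte level was 5638 to 10710 CPM in knockouts and 4347 to 8206 in wild types. There 1 of 7 oligodendrocyte lineage markers and 1 of 3 fibroblast markers rose, 1 of 4 choroid plexus markers fell, and 0 of 7 microglia, 0 of 6 neuron, 0 of 1 endothelial and 0 of 4 cell cycle markers were called. Summed oligodendrocyte lineage markers split this line by replicate. They were at 372.2 to 445 CPM in knockouts 1 to 3 and 317 in wild types 1 and 2. Knockouts 4 to 6 had 110.9 to 122.7 and wild types 3 to 8 had 111.6 to 144.1. The part of these cells in the tektin differences was not tested. In bulk RNA, fewer multiciliated cells and less tektin mRNA per cell cannot be told apart.

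Tekt2, Tekt3 and Tekt4 fell in Rfx3-/- cells, and Tekt4 had the largest difference of the 4. Tekt1 missed the threshold. For all 4 genes, 6 of 6 knockouts lay below every wild type, as for 9.39% of all genes. In this line 23.5% of the 14340 genes tested were called and 12.9% were called lower.

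Tekt4 was at 16.3, 14.5, 14.8, 2.93, 3.55 and 2.23 CPM in Rfx3-/- libraries 1 to 6 and between 32.0 and 41.7 (median 34.1) in the 6 wild types. The first 3 knockouts had 41.3% to 46.1% of the wild-type mean and the other 3 had 6.32% to 10.1%, so none came near the wild types. The log2 difference was -1.98 (SE 0.46, adjusted p = 0.0102), and without libraries 4 to 6, a choice made after seeing the data, it was -1.21 (adjusted p = 0.00052). Tekt3 was at 1.54, 1.46, 2.39, 0.718, 0.302 and 0.352 CPM against 2.84 to 4.01 (median 3.05). Library 3 was the closest to the wild types, with 74.7% of their mean. The log2 difference of Tekt3 was -1.53 (SE 0.42, adjusted p = 0.0197) with all libraries and -0.83 (0.0395) without the last 3.

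Tekt2 was at 3.65, 2.97, 4.04, 1.62, 2.32 and 1.96 CPM against 4.35 to 5.62 (median 5.06). Library 3 had 79.5% of the wild-type mean and library 4 had 31.9%. Its log2 difference was -0.89 (SE 0.20, adjusted p = 0.00954), and without libraries 4 to 6 it was -0.51 and not called (0.0558). Tekt1 was at 94.3, 77.8, 91.5, 23.0, 26.1 and 14.5 CPM against 113 to 138 (median 120). The gap between the upper and the lower set of knockouts was wider than that between the upper set and the wild types, and the log2 difference of -1.17 had a large error (SE 0.41, adjusted p = 0.0544). Without libraries 4 to 6 the difference of Tekt1 was smaller and passed (-0.47, SE 0.09, adjusted p = 0.0153), with 6.89% of all genes called. It also passed without library 1 (-1.41, 0.0277) or library 3 (-1.38, 0.0260), in DESeq2 (-1.17, 0.0151) and in limma-voom (-1.54, 0.0183).

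**Figure D2:**
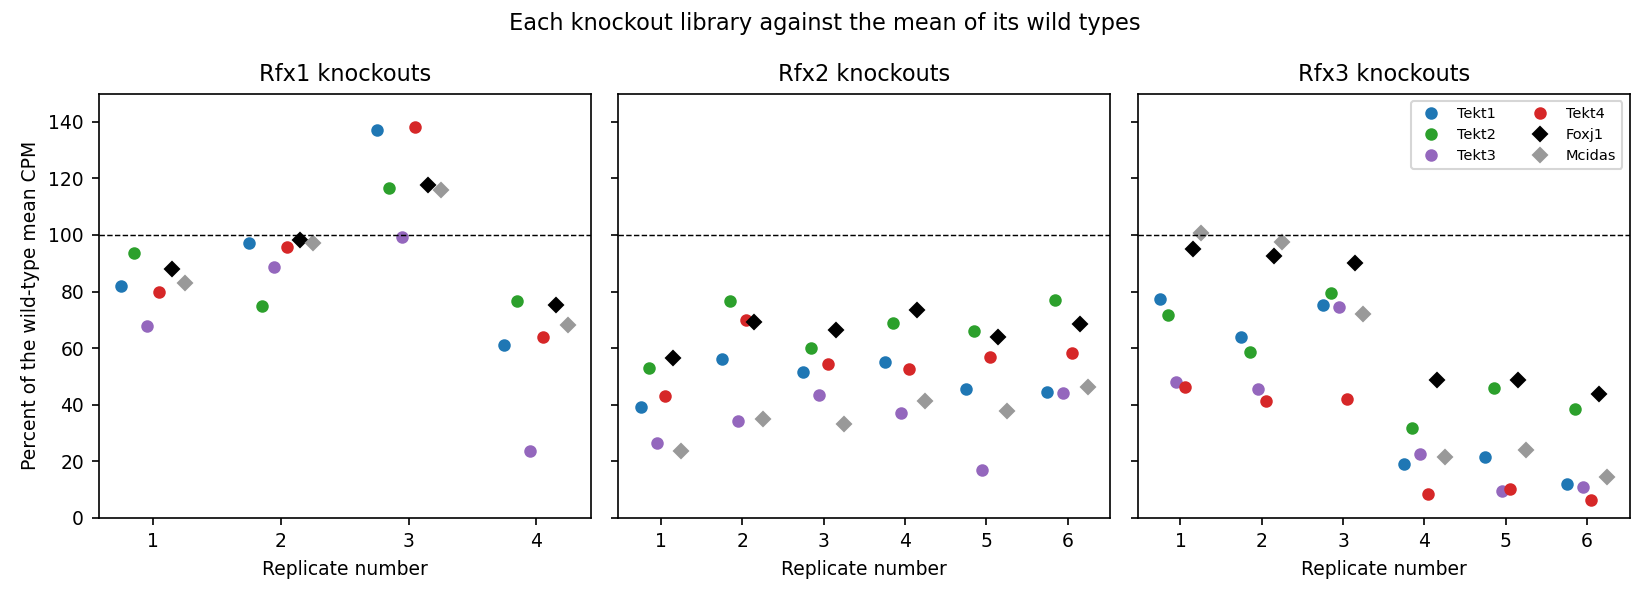
Level of each tektin, Foxj1 and Mcidas in every knockout library (replicate number on the horizontal axis) as a percentage of the mean of the wild types of that line (vertical axis, dashed line at 100). In Rfx3 knockouts 1 to 3 Foxj1 is at 89.9% to 95.1% while Tekt4 is at 41.3% to 46.1%, and in knockouts 4 to 6 all 6 genes are under 50%.

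The regulators split the Rfx3-/- libraries the same way as the tektins. Foxj1 was at 95.1%, 92.7%, 89.9%, 48.7%, 48.7% and 43.7% of its wild-type mean in libraries 1 to 6, and Mcidas at 101%, 97.7%, 72.0%, 21.4%, 24.0% and 14.3%. Neither was called in this line (log2 differences -0.53 and -0.88, adjusted p = 0.0706 and 0.162), and without libraries 4 to 6 the differences were -0.11 and -0.15 (0.278 and 0.493). Both fell in the Rfx2 line (-0.62 and -1.49, adjusted p = 0.000978 and 0.00048). The summed astrocyte markers were at 4400 to 4700 CPM in Rfx3-/- libraries 4 to 6, at 1954 to 3126 in libraries 1 to 3 and at 1828 to 4323 in wild types. Oligodendrocyte lineage markers were at 449.9 to 589.9, 208 to 393.3 and 121.5 to 340.8 CPM. Over all 6 knockouts 12.9% of the 14340 genes tested were called lower and 1517 genes were called higher. Among markers, 1 of 6 astrocyte, 2 of 7 oligodendrocyte lineage and 2 of 7 neuron markers rose. Another neuron marker, 3 of 4 choroid plexus and 4 of 8 ependymal markers fell. For microglia 0 of 7 markers were called, with 0 of 1 endothelial, 0 of 3 fibroblast and 0 of 4 cell cycle markers. Without libraries 4 to 6, 0 of 6 astrocyte and 0 of 7 oligodendrocyte lineage markers were called and 3 of 8 ependymal markers fell. That fit called 6.89% of all genes, and 4.96% were called lower. The part of other cells in the tektin differences was not tested.

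No tektin passed in Rfx1-/- cells. In this line 0.00723% of the 13830 genes were called, 1 gene. An unadjusted p under 0.05 in edgeR was found for 281. Chance alone would give this to a share of 0.05, which is more genes, so p-values of this line ran high. Tekt1 was at 86.3, 102, 144 and 64.6 CPM in knockouts and at 91.9, 92.9, 109 and 128 in wild types. Tekt4 was at 26.4, 31.6, 45.6 and 21.1 against 28.9, 26.3, 33.3 and 43.4 CPM. For both, the highest and the lowest library of the line were knockouts, and the log2 differences were -0.09 (SE 0.22 and 0.24, adjusted p = 0.9998). Tekt2 was at 4.39, 3.52, 5.48 and 3.59 against 4.83, 4.24, 5.36 and 4.36 CPM (-0.14, SE 0.18, adjusted p = 0.9998). Tekt3 was at 1.80, 2.36, 2.65 and 0.631 against 2.54, 1.81, 3.53 and 2.78 CPM, and its groups overlapped (-0.52, SE 0.39, adjusted p = 0.9998). The lowest Tekt3 value, in knockout 4, rests on 13 counts. Of the marker lists, 0 members were called in this line.

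**Figure D3:**
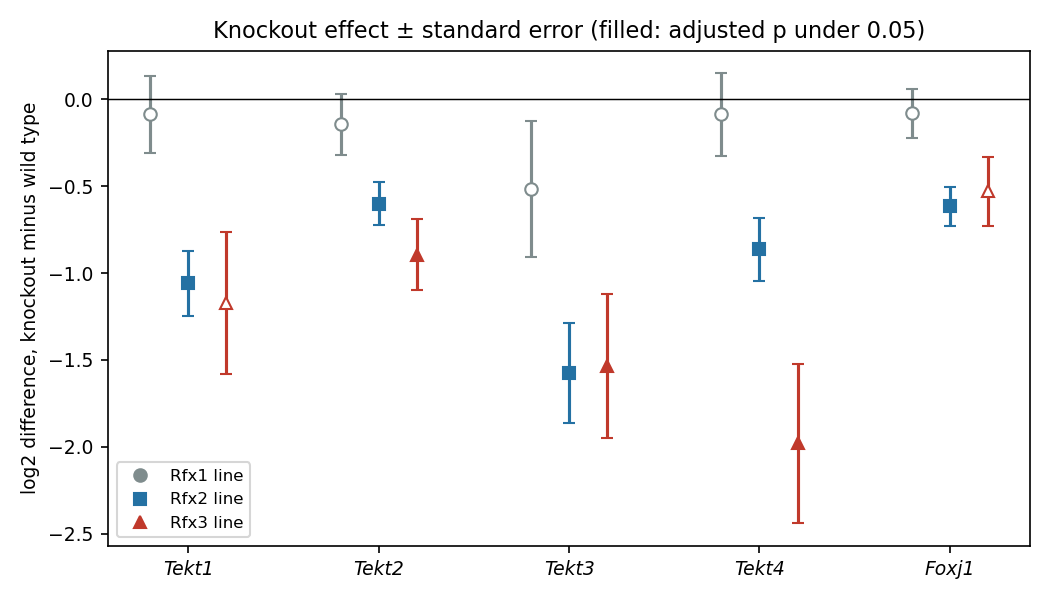
Log2 difference between knockouts and wild types (vertical axis, bars are ± 1 standard error) for each tektin and Foxj1 (horizontal axis) in the Rfx1, Rfx2 and Rfx3 lines, with filled symbols where the adjusted p is under 0.05. Tekt3 is at -1.58 and -1.53 in the Rfx2 and Rfx3 lines, while Tekt4 is at -0.86 and -1.98.

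Differences of knockout effects between lines were tested as contrasts in a fit of all 34 libraries. In edgeR, Tekt4 was the only tektin whose effect differed between a pair of lines, and it did so once. The effect in the Rfx3 line minus that in the Rfx1 line was -1.88 (log2, SE 0.52, 95% interval -2.90 to -0.87, adjusted p = 0.0248), in a contrast with 7.75% of genes called. The call ended without Rfx1-/- library 3 (-1.64, adjusted p = 0.0930), without wild type 1 or 2 of the Rfx1 line (-1.82 and -1.77, 0.0533 and 0.0673), and without Rfx3-/- libraries 4 to 6 together (-1.12, 0.0513). Against the Rfx2 line the effect on Tekt4 differed by -1.13 (SE 0.45, interval -2.01 to -0.25, adjusted p = 0.165, with 3.84% of genes called). That difference passed in limma-voom (-1.68, adjusted p = 0.0192), and without Rfx3-/- libraries 4 to 6 it was -0.34 (0.392 in edgeR).

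For the other 3 genes the intervals of the difference between the Rfx3 and Rfx2 lines included 0. They were -0.95 to 0.69 for Tekt1, -0.75 to 0.14 for Tekt2 and -0.85 to 0.90 for Tekt3. These intervals are approximate, and differences inside them are compatible with the data. Between the Rfx2 and Rfx1 lines, where 0.829% of genes were called, the differences were -0.95, -0.44, -1.03 and -0.76 for Tekt1 to Tekt4 (adjusted p from 0.360 to 0.541). Between the Rfx3 and Rfx1 lines they were -1.08 for Tekt1, -0.74 for Tekt2 and -1.01 for Tekt3 (adjusted p = 0.151, 0.0717 and 0.253). That of Tekt2 passed in limma-voom (-0.84, adjusted p = 0.0394) and in DESeq2 (-0.76, 0.0385), and in edgeR without Rfx3-/- library 1 (-0.84, 0.0293) or 3 (-0.87, 0.0235). The fall of a tektin in 1 line is therefore not shown to differ from its value in another, apart from Tekt4 between the Rfx3 and Rfx1 lines.

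Ratios within a library ask whether the tektins changed to the same extent in the same cells. Each is a difference of log2 CPM, computed with 2 added as prior count, and was compared by an exact permutation test, two-sided, with 18 tests adjusted together. In the Rfx3 line Tekt4 lost ground against Tekt1, from a log2 ratio of -1.79 ± 0.0708 (SD, n = 6) in wild types to -2.67 ± 0.200 (n = 6) in knockouts. All 6 knockouts, from -2.95 to -2.41, lay below all 6 wild types, from -1.91 to -1.72, and the exact permutation p of 0.00216 was the smallest that 6 against 6 allow (adjusted p = 0.0194). Tekt4 lost against Tekt2 as well (difference -1.47, 6 of 6 below, exact p = 0.00216, adjusted 0.0194), and Tekt3 against Tekt2 (-0.85, 5 of 6 below every wild type, adjusted exact p = 0.0389). With Rfx3-/- libraries 1 to 3 alone the differences of Tekt4 were -0.73 to Tekt1 and -0.69 to Tekt2 (adjusted exact permutation p = 0.0536 each). Both rest on the smallest p that 3 against 6 allow. The difference of Tekt3 to Tekt2 was -0.32 there (0.150). The Tekt3 to Tekt2 call also ended without Rfx3-/- library 5 (-0.61, adjusted exact p = 0.0524) and without each of the 6 wild types (-0.90 to -0.79, adjusted exact p from 0.0585 to 0.0779). Tekt4 to Tekt3 differed by -0.62 (adjusted exact p = 0.0692) and passed without Rfx3-/- library 1 (-0.73, 0.0453).

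As shares of the 4 tektins' summed RPKM, Tekt4 made up 18.1% ± 0.766 (SD, n = 6) in wild types of the Rfx3 line and 10.5% ± 1.54 (n = 6) in knockouts. Tekt1 made up 77.2% ± 0.525 and 83.0% ± 1.86. The share of Tekt4 in the Rfx2 line was 17.2% ± 0.836 (n = 8) in wild types and 18.9% ± 1.72 (n = 6) in knockouts.

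In the Rfx2 line it was Tekt3 that fell further than Tekt2 and Tekt4. Its log2 ratio to Tekt2 fell by 0.86 in knockouts (4 of 6 below every wild type, adjusted exact permutation p = 0.021), and the ratio of Tekt4 to Tekt3 was higher by 0.62 (3 of 6 above every wild type, adjusted exact p = 0.021). Against Tekt1 no ratio passed: Tekt2 differed by 0.42, Tekt3 by -0.44 and Tekt4 by 0.19 (adjusted exact permutation p = 0.0528, 0.0599 and 0.0607). These 3 lay close to the threshold. Tekt2 to Tekt1 passed without knockout 3 or wild type 1, 5 or 8 (0.46 to 0.48), Tekt3 to Tekt1 without knockout 3 or 6 or wild type 5 or 7 (-0.54 to -0.48), and Tekt4 to Tekt1 without knockout 3 or 4 (0.21 and 0.24). These tests do not use the pairing of same-numbered samples. Pairs of same-numbered samples were compared after seeing the data. Within the 6 pairs, Tekt3 to Tekt2 was lower in 6 of 6 knockouts (mean -0.98) and Tekt4 to Tekt3 higher in 6 of 6 (mean 0.69). Each had an exact sign-flip permutation p of 0.0312, the smallest that 6 pairs allow (adjusted 0.075 over 6 ratios). Neither passed, and a pass would have needed more ratios at this smallest p. Against Tekt1, Tekt2 was higher in 5 of 6 pairs (mean 0.47), Tekt3 lower in 5 of 6 (-0.51) and Tekt4 higher in 5 of 6 (0.17), each with an exact p of 0.0625 (adjusted 0.075). In the Rfx1 line 0 of 6 ratios were called, and the smallest p that 4 against 4 allow is 0.0286. Over all lines 5 of 18 ratios were called, and 9 had an exact p under 0.05 before adjustment.

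A direct comparison of the Rfx3 and Rfx2 lines was added after these values had been seen. Each knockout library was set against the wild-type mean of its line, and line labels were permuted over the 12 knockouts for each of 6 ratios, an exact test that leaves out the error of the wild-type means. The Tekt4 to Tekt1 ratio deviated by -1.16 to -0.62 in Rfx3-/- libraries and by -0.07 to 0.38 in Rfx2-/- libraries, without overlap (difference -1.07, exact permutation p = 0.00216, adjusted 0.00432). Tekt4 to Tekt2 (-1.23) and Tekt4 to Tekt3 (-1.24) had the same p, and the 3 ratios without Tekt4 did not pass (adjusted exact p from 0.761 to 0.97). Without Rfx3-/- libraries 4 to 6 the 3 differences of Tekt4 were -0.92, -0.45 and -0.99 (adjusted exact p = 0.0179 each, from the smallest p that 3 against 6 allow), and Tekt2 to Tekt1 passed as well, at -0.46.

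**Figure D4:**
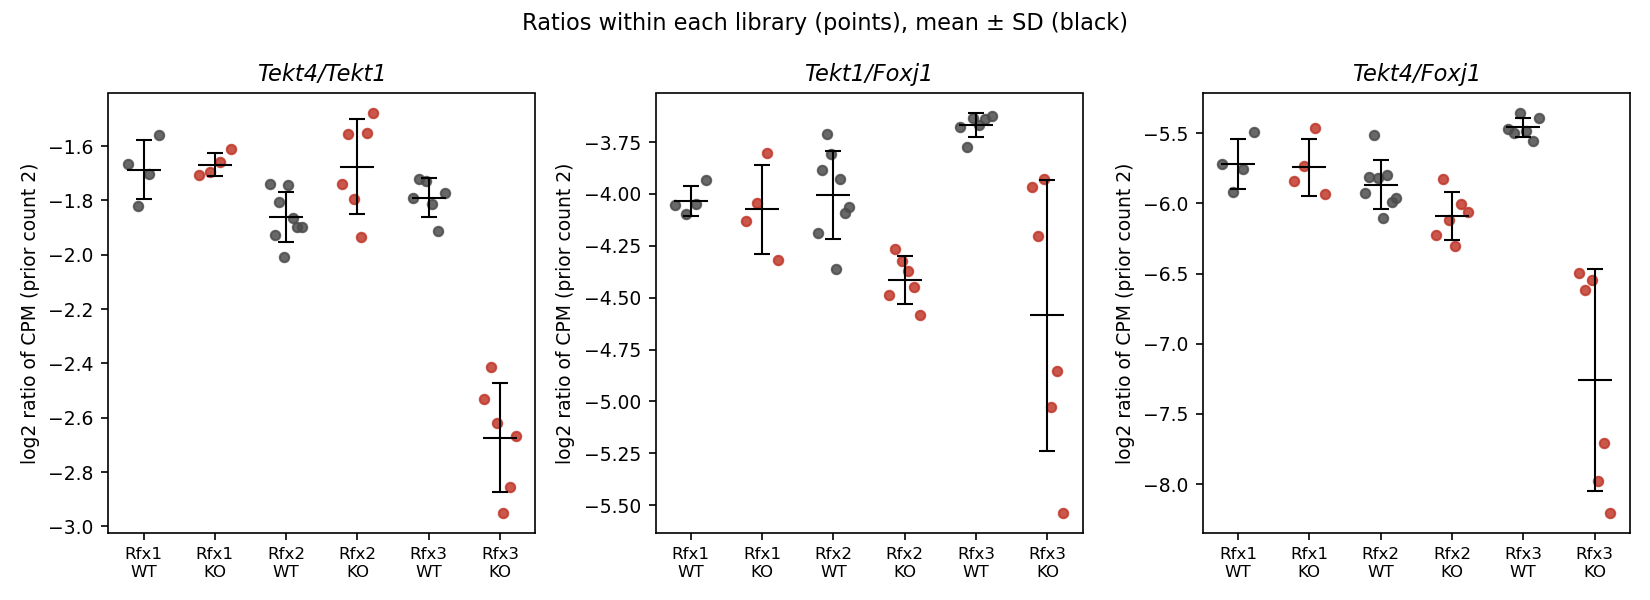
Log2 ratio of CPM within each library (vertical axes, points) for Tekt4 to Tekt1, Tekt1 to Foxj1 and Tekt4 to Foxj1 in the 6 groups (horizontal axis), with black bars for mean ± SD. The Tekt4 to Tekt1 ratio of Rfx3 knockouts lies between -2.95 and -2.41, below every other library.

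Set against Foxj1 in the same library, tektins fell further than this regulator in the Rfx3 line. The log2 ratio to Foxj1 differed by -1.80 for Tekt4, -1.18 for Tekt3 and -0.92 for Tekt1, each with 6 of 6 knockouts below every wild type and an adjusted exact permutation p of 0.00638 over 12 tests. For Tekt2 the difference was -0.33 (adjusted exact p = 0.0173, 4 of 6 below), and the call ended without wild type 3, 4, 5 or 6 (-0.34 to -0.29, adjusted exact p from 0.0525 to 0.0593). With Rfx3-/- libraries 1 to 3 alone, in which Foxj1 was close to wild type, all 4 were called (-1.10 for Tekt4, -0.73 for Tekt3, -0.41 for Tekt2 and -0.36 for Tekt1, adjusted exact permutation p = 0.0238 each). This set was chosen after seeing the data, Foxj1 included. Each exact permutation p before adjustment was 0.0119, the smallest that 3 against 6 allow. In the Rfx2 line Tekt1 and Tekt3 fell further than Foxj1 (-0.41 and -0.85, adjusted exact p = 0.00638 each), Tekt4 missed the threshold (-0.22, 0.0525, though it passed without knockout 2 or wild type 5 or 7, at -0.28 to -0.24), and the ratio of Tekt2 to Foxj1 differed by 0.01 (0.886), with knockouts from -8.04 to -7.74 and wild types from -8.10 to -7.68. Within the 6 same-numbered pairs Tekt1 and Tekt3 were lower against Foxj1 in 6 of 6 (means -0.43 and -0.95). Both had the smallest exact permutation p of 0.0312 and an adjusted 0.0624 over 4 ratios. Neither passed, and a pass would have needed more ratios at this smallest p. In the Rfx1 line 0 of 4 ratios were called. In all, 6 of 12 were called.

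The other microtubule inner proteins fell with the tektins. Of 28 listed genes 22 were matched and tested in each line. In the Rfx2 line, where 18.4% of all genes were called lower, 21 of 22 fell. Their median log2 difference was -0.86 against 0.01 over all genes tested. Among those with the smallest p was 1700007K13Rik, now called Pierce1, which is needed to dock outer dynein arms (19.6 ± 2.28 against 43.2 ± 11.5 CPM, n = 6 and 8; -1.16, adjusted p = 0.00022). Ppp1r32 was the one not called (-0.35, adjusted p = 0.247).

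In the Rfx3 line, where 12.9% of all genes were called lower, 21 of 22 fell as well. Their median was -1.13 against 0.02 over all genes. Cfap53, which is needed for left-right asymmetry, went to 7.85 ± 4.03 from 21.8 ± 4.32 CPM (n = 6 and 6; -1.49, adjusted p = 0.00597). Ribc2 was at 3.79 ± 1.87 against 10.2 ± 1.58 CPM and Spag8 at 29.3 ± 15.2 against 78.0 ± 7.60 (adjusted p = 0.00597 and 0.00695). Without Rfx3-/- libraries 4 to 6, where 4.96% of all genes were called lower, 16 of 22 fell, with a median of -0.57 against 0.01 over all genes. In the Rfx1 line 0 of 22 were called (median -0.10), with 0.00723% of all genes called. Tektin values in the same fits lay between -1.58 and -0.60 in the Rfx2 line and between -1.98 and -0.89 in the Rfx3 line.

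Of 10 regulators of multiciliation, among them Gmnc, Mcidas, Ccno, Foxj1 and Myb, 7 fell in the Rfx2 line, where 18.4% of all genes were called lower (median -0.74 against 0.01 over all genes). In the Rfx3 line 0 were called (median -0.64 against 0.02, with 23.5% of all genes called). Without Rfx3-/- libraries 4 to 6 their median was -0.09 against 0.01, with 0 of 10 called and 6.89% of all genes called. In the Rfx1 line 0 were called as well (median -0.08 against 0.00, with 0.00723% of all genes called). Among relatives of the tektins, Tekt5 fell in the Rfx3 line, to 0.794 ± 0.199 from 1.35 ± 0.194 CPM (n = 6 and 6; -0.78, SE 0.18, adjusted p = 0.00981), and was not called without libraries 4 to 6. It was 0.663 ± 0.123 against 0.736 ± 0.266 in the Rfx2 line (-0.16, adjusted p = 0.611) and 0.821 ± 0.232 against 0.781 ± 0.102 in the Rfx1 line (0.08, adjusted p = 0.9998). Ccdc105 was too low to be tested, at 0.0318 ± 0.0272 CPM in Rfx2 knockouts and 0.117 ± 0.0661 in their wild types.

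The 5 genes most like each tektin were taken by Pearson's r of log2 CPM over the 34 libraries among 12263 genes. These values describe libraries that share the lines, the genotypes and the content of multiciliated cells, and no test goes with them. Tekt1 was closest to Lrrc23, which encodes a radial spoke protein (r = 0.996), Ccdc113 (0.996), Pifo (0.992), Cfap206 (0.991) and Lrrc34 (0.990). Tekt4 was closest to Ccdc60 (0.985), Rsph14, also a radial spoke gene (0.980), Ccdc81 (0.978), Lrrc43 (0.975) and Iqca (0.975). The 2 lists share no gene. In the Rfx3 line the log2 difference was -1.39 to -1.0 for the 5 genes closest to Tekt1 and -1.69 to -2.19 for those closest to Tekt4. The genes were picked over libraries that include these Rfx3 knockouts. These differences therefore follow from the choice and add nothing to the values of Tekt1 and Tekt4.

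Tekt3 was closest to Clec3b (0.955), Fbxo16 (0.950), Cfap299 (0.950), Nme9 (0.949) and Ppp1r36 (0.946). Tekt2 was closest to Fam47e (0.929), Wdr38 (0.923), Cfap126, itself on the list of inner proteins (0.919), Capsl (0.919) and Ppil6 (0.918). Among the tektins themselves r was highest for Tekt1 and Tekt4 (0.942) and lowest for Tekt2 and Tekt3 (0.776), the pair with the fewest counts.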

How the data were processed

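RNA was measured by bulk RNA sequencing of total RNA in TruSeq libraries, per the labels' protocols. The authors deposited raw counts per Ensembl gene, with no normalization. Per the submitters' processing notes, CASAVA 1.8.2, STAR 2.4, featureCounts 1.4.6 and GRCm38 were used. Strand and annotation settings were not found in the labels, and Tekt2 overlaps a gene on the other strand. Of 21647 identifiers 21583 matched GENCODE M21. No pair among 85 pairs of replicates agreed within counting error.

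For each line a separate fit was made in edgeR 4.0.16 under R 4.3.3 (quasi-likelihood test, TMM, filterByExpr at count 10 and total 15), and Benjamini-Hochberg adjustment covered all genes tested with a threshold of 0.05. Differences between lines were contrasts in a fit of 34 libraries, with 95% intervals from the standard error. That error was derived from the log2 difference and its F value, and the interval from a normal quantile. The intervals are therefore approximate, above all for differences near 0. RPKM is CPM per 1000 exon bases. Ratios used log2 CPM (prior count 2) with exact permutation tests. The edgeR fits were tested on simulated data with 200 changed genes, and recovered 76.5%, 87.9% and 74% of log2 changes of 1 in designs like the Rfx1, Rfx2 and Rfx3 lines. Of the calls in these designs 2.29%, 5.56% and 7.07% were false. The simulated knockouts did not fall into 2 sets as those of the Rfx3 line did. With 200 changed genes the adjustment is milder than in the Rfx1 line, where 1 gene was called. Rfx1 itself, at a log2 difference of -1.40, missed the threshold there (edgeR, adjusted p = 0.0687). The share of 76.5% therefore does not apply to the tektins of that line.

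Members and gene lists were chosen with earlier results of these data known. Named were the 4 tektins, their relatives (Tektip1 had no match), the targeted genes, Foxj1 and Mcidas, the 3 microtubule inner proteins with the smallest p in the Rfx2 and in the Rfx3 line, and the 5 genes with the highest correlation to each tektin. Some genes this rule picks are not reported here. Ppp1r32 was named after its value was seen, as the member not called in the Rfx2 line. Knockouts and wild types share replicate numbers. In the Rfx2 line same-numbered samples deviated together from their group means (r from 0.139 to 0.578 in 6 of 6 pairs). There the numbers were taken to pair samples, though only 3 of 6 knockouts were closest to the wild type of their own number. A fit with the numbers as a block called the same 4 tektins. Alternatives were DESeq2 1.42.0, limma-voom (limma 3.58.1), the replicate block, no filter on low counts, all groups in 1 fit, a term for Y-linked counts, leaving out each library, Rfx2 replicates from 4 upward and, added after seeing the data, Rfx3-/- libraries 4 to 6 left out and ratios within same-numbered pairs of the Rfx2 line (exact sign-flip permutation).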

Additional observations from a re-analysis of the deposited data

Results flagged for a closer look

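Wild type 3 of the Rfx2 line had 32.0 CPM of Tekt4, far from the other 7 wild types, which lay between 13.3 and 21.2. It was the only such library among 24 groups of 4 or more values tested, and chance alone marks about 1 in 20. It also had the highest Tekt1 and Tekt3 of its group, at 112 and 2.37 CPM. Without it Tekt4 kept its call in the Rfx2 line.

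The effect of the knockout on Tekt4 differed between the Rfx3 and Rfx1 lines by -1.88 (log2, adjusted p = 0.0248 in edgeR), the only 1 of 12 contrasts that passed. Leaving out single libraries moved its adjusted p between 0.00698 and 0.0930, and 3 of 20 such fits lost the call, those without Rfx1-/- library 3 or without wild type 1 or 2 of the Rfx1 line. Without Rfx3-/- libraries 4 to 6 it was -1.12 (0.0513). Between the Rfx3 and Rfx2 lines the knockout effect on the log2 ratio of Tekt4 to Tekt1 differed by -1.07, that of Tekt4 to Tekt2 by -1.23 and that of Tekt4 to Tekt3 by -1.24 (exact permutation tests, adjusted p = 0.00432 each, 3 of 6 ratios tested).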

How the results depend on the processing

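Most values kept their direction and their side of the threshold (1145 of the 1308 compared). In the Rfx2 line the 4 tektins were called under every setting run, apart from Tekt4 in a fit of all groups (-0.84), and with single libraries left out their adjusted p stayed between 0.00023 and 0.00792. In the Rfx3 line Tekt1 (main value -1.17) passed at -1.17 in DESeq2, -1.54 in limma-voom, -1.16 in the fit of all groups and -0.47 without Rfx3-/- libraries 4 to 6, and ran from -1.41 to -0.98 with single libraries left out, while Tekt2 was lost at -0.51 without the 3 libraries. The cause of these moves was not tested. Genes called in this line, 3374, were 5367 in the fit of all groups, 996 without the 3 libraries (fewer samples), and 2139 to 5549 with single libraries left out (without wild type 3 and knockout 3). In the Rfx1 line the count of 1 became 9 in DESeq2, 2 without a filter, 6 in the fit of all groups, 0 with a term for Y-linked counts, and 0 to 9 with single libraries left out.

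With the replicate block, the Rfx2 line had 4204 genes called in place of 4626, and no tektin call changed. Within the 6 pairs of this line, the 4 ratios called (Tekt3 to Tekt2, Tekt4 to Tekt3, Tekt1 and Tekt3 to Foxj1) kept their direction and missed the threshold (adjusted exact permutation p = 0.0624 to 0.075). Each was at the smallest p that 6 pairs allow, so the miss does not show that these ratios depend on the pairing. In the Rfx2 line 3 of 6 knockouts were closest to the wild type of their own number. Same-numbered samples did not all deviate together in the Rfx1 line (r from -0.0652 to 0.332, 2 of 4 closest) or the Rfx3 line (-0.332 to 0.198, 1 of 6). There the block gave 0 genes in the Rfx1 line and 2205 in the Rfx3 line, with Tekt1 called at -1.51 (adjusted p = 0.0444).

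For contrasts between lines, Tekt2 in Rfx3 minus Rfx1 passed at -0.84 in limma-voom and -0.76 in DESeq2, and ran from -0.87 to -0.59 with single libraries left out. Tekt4 ran from -2.15 to -1.64 there, and was -1.12 without the 3 libraries. In Rfx3 minus Rfx2, Tekt4 passed in limma-voom (-1.68), Tekt3 was -0.43 in limma-voom and ran from -0.30 to 0.28 with single libraries left out, and Tekt1 was 0.59 and Tekt2 0.094 without the 3 libraries. Tekt1 ran from -0.36 to 0.10 with single libraries left out. Genes called were 57 (limma-voom), 337 (DESeq2) and 46 to 264 (without Rfx1-/- 3 and Rfx2 wild type 5) in place of 123 for Rfx2 minus Rfx1, 284 without the 3 libraries and 286 to 2041 (without Rfx1-/- 3 and Rfx3-/- 1) in place of 1149 for Rfx3 minus Rfx1, and 913 (DESeq2), 1964 without the 3 libraries and 412 to 961 in place of 570 for Rfx3 minus Rfx2.

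Of the ratios between tektins 2 were called without the 3 libraries and 4 to 8 with single libraries left out (8 without Rfx2-/- 3). Without the 3, the Rfx3 line gave -0.041 for Tekt2 to Tekt1, and the difference of that ratio between the Rfx3 and Rfx2 lines became -0.46 (single libraries: -0.065 to 0.30). The same difference for Tekt3 to Tekt2 ran from -0.14 to 0.25. Uncalled values near 0 changed sign with single libraries left out. In the Rfx1 line these were Tekt1 (-0.32 to 0.075), Tekt4 (-0.33 to 0.082), the ratios Tekt2 to Tekt1 (-0.16 to 0.087), Tekt4 to Tekt1 (-0.026 to 0.061) and Tekt4 to Tekt2 (-0.061 to 0.22), and the ratios to Foxj1 of Tekt1 (-0.13 to 0.041), Tekt2 (-0.17 to 0.036) and Tekt4 (-0.12 to 0.053). In Rfx2-/- cells it was Tekt2 to Foxj1 (-0.019 to 0.046). In that line Tekt2 to Tekt1 (0.42, adjusted exact permutation p = 0.0471) and Tekt3 to Tekt1 (-0.53, 0.0411) were called with a prior count of 0.5. Of the 5 genes closest to each tektin, 1 to 3 were shared with a ranking by Spearman's rho. With libraries centred on the mean of their line, 4 of 5 were shared for Tekt1, 2 for Tekt3, 2 for Tekt4 and 0 for Tekt2. Depth limits Tekt3 the most, with 7 to 22 counts in Rfx2-/- libraries.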
